A study of Mus musculus with 8 samples.

Results

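Fabp5, Scd3 and Cyp51 are 3 genes of lipid handling in skin. Each was represented by a single oligonucleotide probe, found by its RefSeq accession, among 6587 genes that could be named on the arrays. They were picked because their ratios stood out among sebaceous and epidermal lipid genes on these same arrays. Their own values are therefore given as a description, with no test, and tests are kept for other genes of the same pathways. Whole skin of near naked hairless mice, which carry a mutation of the hairless locus Hr, was set against skin of wild type mice, all aged 7 days. Mutant and wild type RNA were hybridized together on 8 arrays of 2 colours, with the mutant RNA in Cy5 on arrays 2, 4, 6 and 7 and in Cy3 on arrays 1, 3, 5 and 8. The design speaks of 5 biological replicates, all of 1 litter. No label says which animal is on which array, so some arrays shared an animal. P-values over arrays are therefore too small and may measure technical spread. Strain, sex and the number of animals of each genotype were not stated.

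Values are log2 ratios of mutant over wild type. This direction is likely rather than stated, since the channel called sample comes first and the design names the mutant first. With the opposite sign every direction would turn while the sizes would hold. The base of the logarithm is not stated either, and if it were natural, each value would be 1.44 times larger on the log2 scale. A ratio on whole skin cannot tell fewer cells of a type from less RNA per cell, and spot intensities were not used here, so nothing can be said of how strongly a gene was expressed, and the tissue label could not be checked against marker levels. An array gave values for 41.3% to 88.3% of the rows, array 3 for the fewest. The SD of all ratios ran from 0.57 on array 5 to 1.60 on array 2. A ratio of a given size was therefore more extreme on array 5 than on array 2.

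Skin lipids come from several sources. The sebaceous gland makes sebum, a mixture of lipids rich in wax esters. The upper epidermis makes the ceramides, fatty acids and cholesterol of the permeability barrier. Fatty acid binding proteins carry fatty acids inside the cell, stearoyl-CoA desaturases put a double bond into saturated fatty acids, and a chain of enzymes from acetyl-CoA through lanosterol builds cholesterol. Fabp5 encodes the epidermal fatty acid binding protein of keratinocytes, which also carries ligands to nuclear receptors. Scd3 encodes a desaturase known in mouse skin from sebocytes, and belongs to a gene cluster with the closely similar Scd1, Scd2 and Scd4. Cyp51 encodes lanosterol demethylase, a cytochrome P450 enzyme of cholesterol synthesis, and is a known target of the sterol-sensing transcription factors of the SREBP family.

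Upstream sequence is shown for Cyp51 and Scd3, since control of these genes by sterol and fatty acid supply is known to act through their promoters. The reference used held no promoter of Fabp5, so none is shown for that gene. Each stretch covers the 250 bases before the annotated start in RefSeq, build GRCm38.p6. It lies at chr5:4104698-4104947 on the minus strand for Cyp51 and at chr19:44203038-44203287 on the plus strand for Scd3. Capitals mark matches, on either strand, to a sterol regulatory element core (ATCACCNCA), the CCAAT box (CCAAT), the GC box (GGGCGG) and the TATA box (TATAAA).
Cyp51: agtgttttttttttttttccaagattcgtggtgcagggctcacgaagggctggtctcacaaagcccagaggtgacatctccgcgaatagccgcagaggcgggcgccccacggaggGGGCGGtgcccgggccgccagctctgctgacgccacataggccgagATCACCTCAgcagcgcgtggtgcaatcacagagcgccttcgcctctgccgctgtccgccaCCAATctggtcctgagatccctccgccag
Scd3: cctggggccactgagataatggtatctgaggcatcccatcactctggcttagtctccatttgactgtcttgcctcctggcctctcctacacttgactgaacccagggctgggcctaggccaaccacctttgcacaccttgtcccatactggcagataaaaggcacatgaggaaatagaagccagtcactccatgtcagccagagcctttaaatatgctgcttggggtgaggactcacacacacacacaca

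The Cyp51 stretch held 3 matches. The GC box lay at bases 135 to 130 before the start, the sterol element core, read as ATCACCTCA, at bases 89 to 81, and the CCAAT box at bases 29 to 25. The Scd3 stretch held 0 matches. G and C made up 62.8% of the Cyp51 stretch and 52.4% of that of Scd3. Of 32851 such promoters, 0.645% held the sterol element core, 33.8% a CCAAT box, 32.7% a GC box and 12.4% a TATA box. Among 19 cholesterol synthesis genes with a promoter in the table, Cyp51 alone held this form of the core, while 16 held a CCAAT box. A match is a description of the letters, not a binding site, and the absence of one says only that these letters were not in this window.

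Fabp5 was lower in the mutant on every array that measured it. Its log2 ratios were -2.41, -3.07, -1.85, -1.55, -1.78, -0.26 and -0.36 on arrays 1, 2, 4, 5, 6, 7 and 8, with no value on array 3. Arrays 1 to 6 lay at -1.55 or below and arrays 7 and 8 close to 0. The mean was -1.61 ± 1.02 (SD, n = 7), and the fitted ratio, which takes the dye orientation into account, was -1.59 ± 0.33 (SE), or 3.01-fold lower. The mean was -1.74 ± 1.15 (SD, n = 4) with the mutant RNA in Cy5 and -1.44 ± 1.03 (SD, n = 3) with it in Cy3. The 2 orientations overlapped, and both spanned values near 0 and values below -2.

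**Figure D1:**
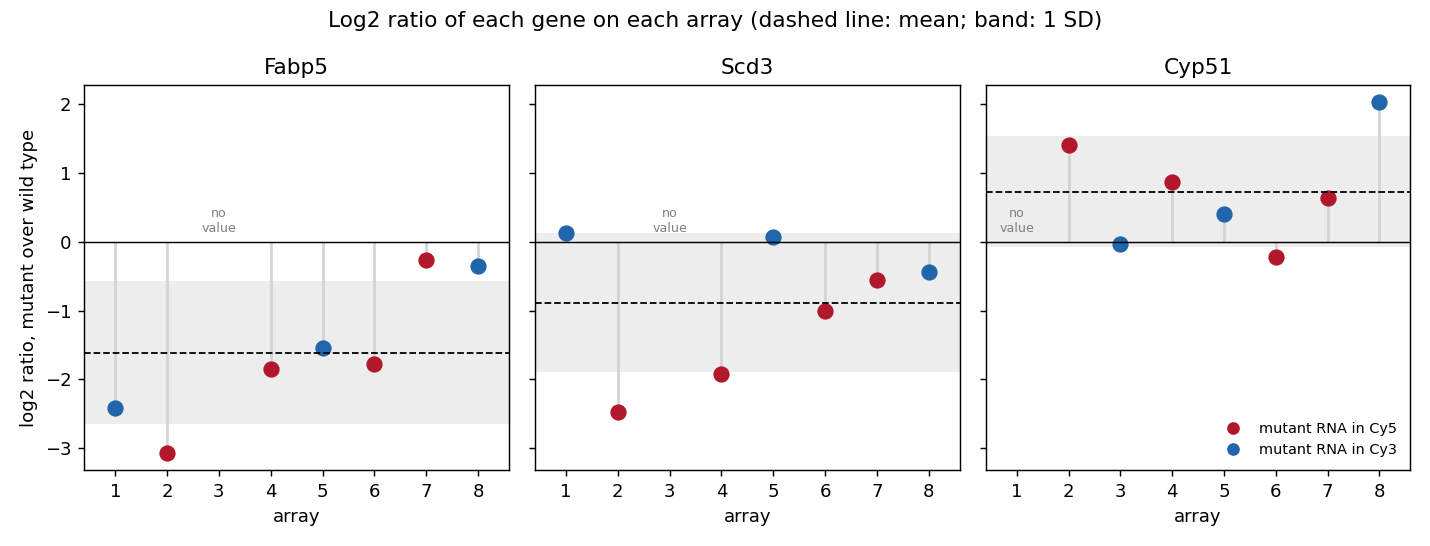
Log2 ratio of mutant over wild type (vertical axis) of Fabp5, Scd3 and Cyp51 on arrays 1 to 8 (horizontal axis), with the mutant RNA in Cy5 in red and in Cy3 in blue; the dashed line is the mean and the band 1 SD. All 7 values of Fabp5 lie below 0, the values of Scd3 with the mutant RNA in Cy5 lie below those with it in Cy3, and 5 of 7 values of Cyp51 lie above 0.

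Scd3 followed the dye orientation. With the mutant RNA in Cy5 its log2 ratios were -2.48, -1.92, -1.004 and -0.55 on arrays 2, 4, 6 and 7. With the mutant RNA in Cy3 they were 0.14, 0.07 and -0.43 on arrays 1, 5 and 8, and array 3 had no value. The orientations did not overlap, although array 7 at -0.55 and array 8 at -0.43 were close. The means were -1.49 ± 0.87 (SD, n = 4) in Cy5 and -0.07 ± 0.31 (SD, n = 3) in Cy3, a difference of -1.41. Over both, the mean was -0.88 ± 0.99 (SD, n = 7), the fitted ratio -0.78 ± 0.25 (SE) and the fitted dye part, meaning the share of a ratio that changes sign with the orientation, -0.71. Over all genes the dye part was past the test for 66 of 3779, or 1.75% (limma, adjusted p below 0.05). Of the other lipid genes tested, 0 were past it. Orientations without overlap were still seen among them, as for Sqle and Rarg, whose orientation means differed by 1.28 and -1.30. How many of all genes had orientations that did not overlap was not counted. Over all probes, the median correlation was 0.49 between arrays of the same orientation and -0.023 between arrays of opposite orientation. The 1.75% is a count of calls and does not measure how widely ratios followed the orientation. A lower level of Scd3 in the mutant was thus seen in 1 dye orientation, and the part of the dye in it was not tested.

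Cyp51 was higher in the mutant on most arrays. Its log2 ratios were 1.41, -0.04, 0.87, 0.41, -0.22, 0.64 and 2.03 on arrays 2 to 8, with no value on array 1. Arrays 3 and 6 lay just below 0 and the other 5 above it, with array 8 the highest. The mean was 0.73 ± 0.79 (SD, n = 7) and the fitted ratio 0.74 ± 0.28 (SE), or 1.67-fold higher. The orientations gave similar means, 0.67 ± 0.68 (SD, n = 4) with the mutant RNA in Cy5 and 0.80 ± 1.09 (SD, n = 3) with it in Cy3. Without array 8 the fitted ratio was 0.43, so that array 8 moved it by more than 1.5 times.

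Ranks within an array set aside the unequal spread of the arrays. On array 5, 0.532% of 6017 named genes had a lower ratio than Fabp5. The share was 0.669% on array 1, 0.977% on array 6, 3.6% on array 4 and 4.42% on array 2, against 33.2% on array 7 and 32.4% on array 8. Fabp5 was therefore near the bottom of 5 arrays, and its most negative ratio, on array 2, was not its most extreme rank. The share below Scd3 ran from 2.96% to 21.4% with the mutant RNA in Cy5 and from 28.5% to 57.2% with it in Cy3. The share below Cyp51 was between 76.5% and 94.3% on 5 arrays, 47.2% on array 3 and 36.2% on array 6.

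**Figure D2:**
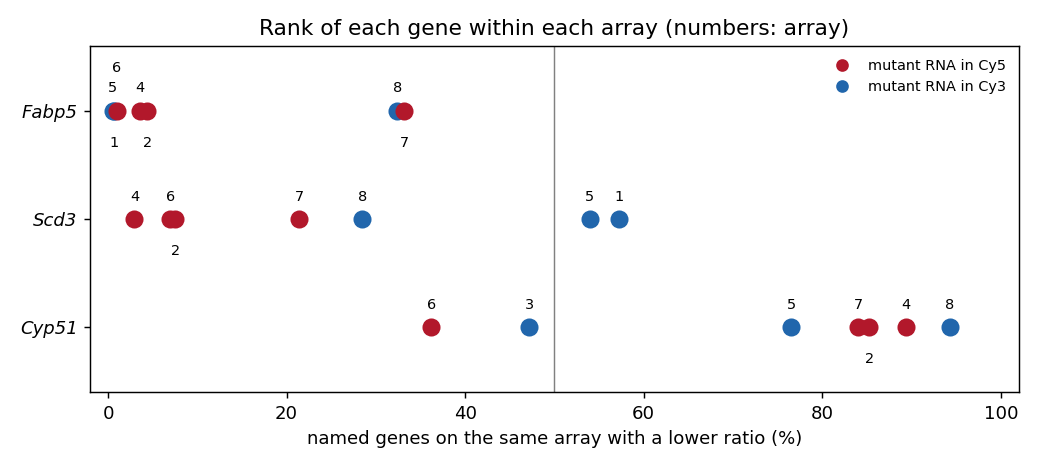
Share of named genes with a lower ratio on the same array, in percent (horizontal axis), for Fabp5, Scd3 and Cyp51 (rows); each point is an array, numbered, in red with the mutant RNA in Cy5 and in blue with it in Cy3. Fabp5 has 5 arrays at 4.42% or below and 2 near 33%, Scd3 spreads from 2.96% to 57.2%, and Cyp51 has 5 arrays above 76%.

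The 3 genes did not share a pattern over arrays. Fabp5 and Scd3 were both below Cyp51 on 6 of 6 shared arrays, by a mean of -2.33 ± 1.23 and -1.91 ± 1.36 (SD, n = 6). The genes were chosen from these ratios, so this order is a description and no support for a difference. Between themselves, Fabp5 was below Scd3 on 4 of 7 arrays and above it on 3, with a mean difference of -0.73 ± 1.04 (SD, n = 7) that ran from -2.55 on array 1 to 0.29 on array 7. The widest gaps were on arrays 1 and 5, where Scd3 was near 0, and on arrays 4, 7 and 8 the genes lay close together.

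Other genes of fatty acid, sterol and barrier lipid metabolism were tested in the fit over all named genes. Of 3779 genes with enough values, 25 were higher in the mutant, which is 0.662%, and 106 were lower, which is 2.8% (limma, adjusted p below 0.05). With quantile normalization between arrays the split was 128 higher and 223 lower. The 8 lipid lists together held 263 genes beside Fabp5, Scd3 and Cyp51, of which 133 had a value and 75 could be tested. Of these 75 genes 1 was higher and 0 were lower, or 1.33% against 3.47% of all genes tested in either direction. At an unadjusted p below 0.05 in limma, 6 were higher and 2 lower. The median fitted ratio of the 75 was -0.0033, against 0.05 over all genes, with 37 above 0 and 38 below. The lists and the 3 genes were chosen with earlier results of these arrays known.

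**Figure D3:**
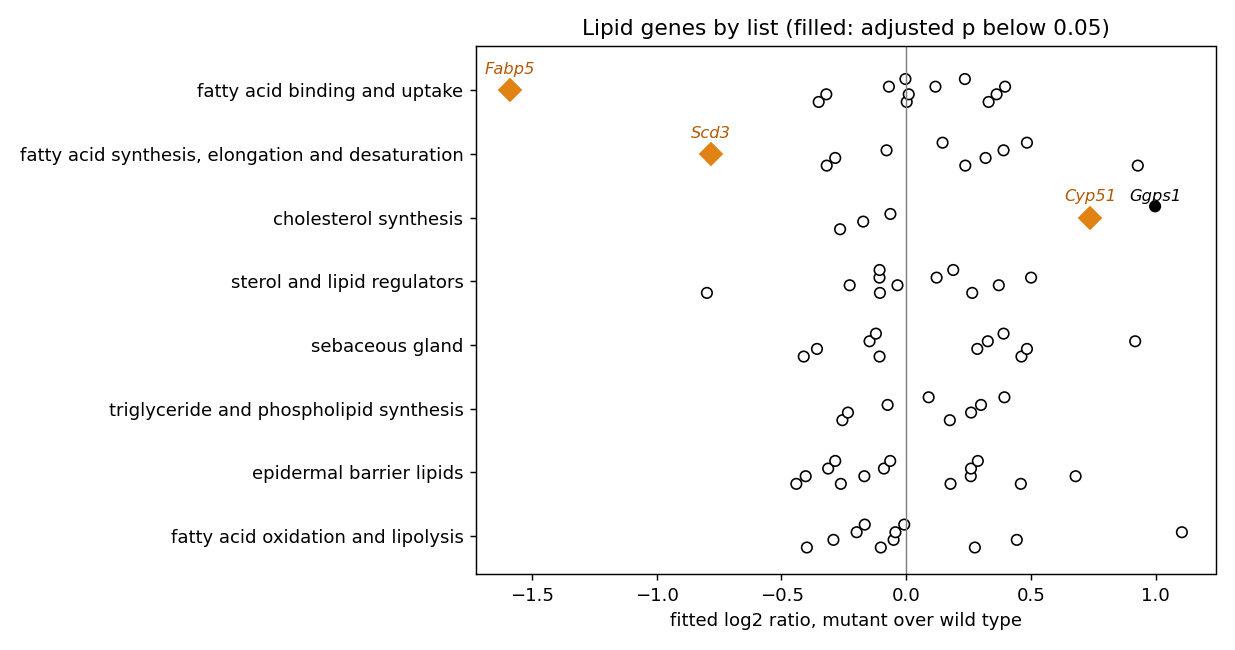
Fitted log2 ratio of mutant over wild type (horizontal axis) of every tested gene in the 8 lipid lists (rows), as circles, filled where the adjusted p was below 0.05; the diamonds are Fabp5, Scd3 and Cyp51, which were chosen from these values and not tested. Ggps1 at 1.00 is the 1 filled circle, and most other genes lie within 0.5 of 0.

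Of 4 other cholesterol synthesis genes tested, Ggps1 was higher and 3 did not pass, with a list median of -0.12. Ggps1 encodes geranylgeranyl diphosphate synthase, on a branch of the mevalonate pathway that leads to protein prenylation rather than to sterols. Its log2 ratios were 1.17, 0.86, 1.67, 1.52, 0.49, 1.19 and -0.02 on arrays 1 to 7, with no value on array 8, so that 6 of 7 lay above 0. The fitted ratio was 1.00 ± 0.24 (SE, limma adjusted p = 0.0451). It stayed past the threshold in 2 of 8 limma fits that left out 1 array, those without arrays 7 and 8. Leaving out array 8 removed no value of Ggps1, so that fit says nothing of its stability. The call was lost without any 1 of arrays 1 to 6, with limma adjusted p up to 0.139.

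Sqle, the squalene epoxidase that precedes the first sterol, had a fitted ratio of -0.27 ± 0.23 (SE), from -1.13 on array 8 to 1.12 on array 6. Ebp, a sterol isomerase downstream of Cyp51, stood at -0.06 ± 0.41 (SE), with -3.00 on array 3 and no other array below -0.28. Its sign was not settled, since the fit was 0.36 without array 3 and 0.097 without array 6. Msmo1, the methyl sterol oxidase that acts shortly after Cyp51, had values on 5 arrays and could not be tested. They were -0.05, -0.35, 0.04, -0.03 and -1.54 on arrays 4 to 8, so that on array 8, where Cyp51 was highest, Msmo1 was at its lowest. The 5 genes of the pathway with values but no test had means from -1.11 to -0.06, none above 0. The -1.11 was Nsdhl, with a value on array 2 alone. Single arrays of the others went both ways, and Dhcr7 was above 0 on 3 of 6. The means with the mutant RNA in Cy5 and in Cy3 were -0.61 and 0.15 for Fdft1, and 0.27 and -0.54 for Hsd17b7.

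The other desaturases did not share the pattern of Scd3. Scd1, the main desaturase of the sebaceous gland, had log2 ratios of -0.85, -0.62, -1.02, -0.08, 0.20 and 4.71 on arrays 1, 4, 5, 6, 7 and 8. Scd2 had 0.60, -1.96, 0.55, 0.04, 0.36 and 5.98 on arrays 1, 2, 4, 5, 6 and 8. Both were far higher on array 8 than elsewhere, whereas Scd3 was at -0.43 there. The fitted ratio of Scd1 was 0.39 ± 0.63 (SE, limma adjusted p = 0.773), -0.55 without array 8 and -0.15 with quantile normalization, so its sign rested on that array. That of Scd2 was 0.93 ± 0.68 (SE, limma adjusted p = 0.486), and -0.02 without array 8. Neither passed, and with 95% intervals from -1.02 to 1.80 and from -0.59 to 2.45 a change of either gene in both directions was within reach of the error. Since the desaturase genes are close in sequence and probe sequences were not used here, signal shared between their probes cannot be told apart.

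**Figure D4:**
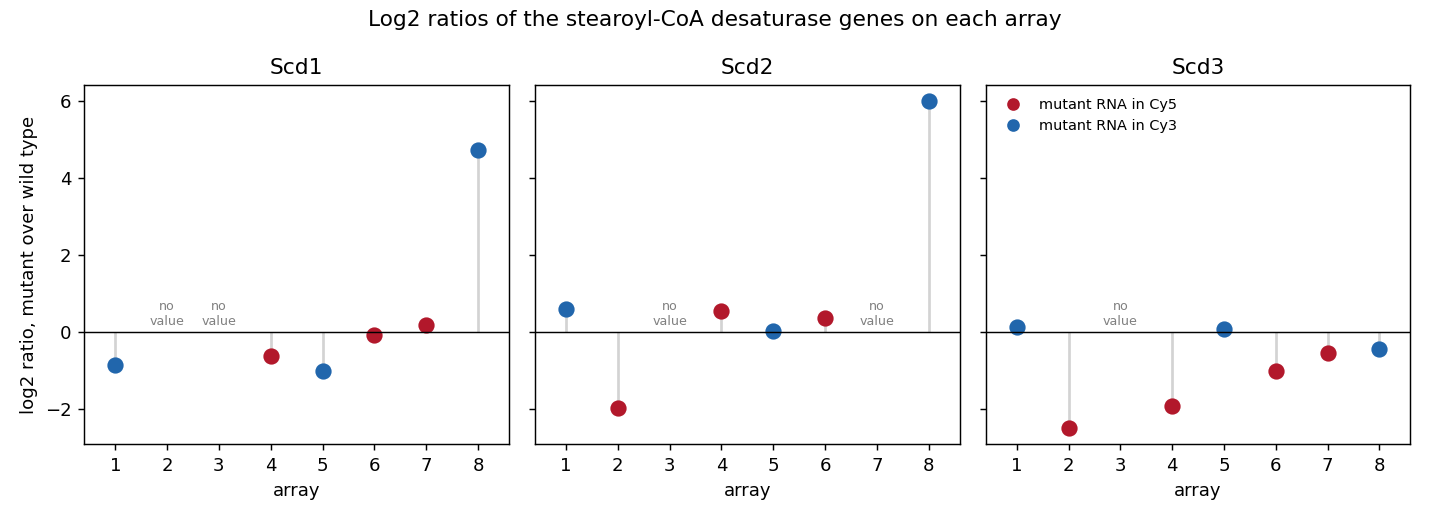
Log2 ratio of mutant over wild type (vertical axis) of Scd1, Scd2 and Scd3 on arrays 1 to 8 (horizontal axis), with the mutant RNA in Cy5 in red and in Cy3 in blue. Array 8 stands at 4.71 for Scd1 and 5.98 for Scd2, and at -0.43 for Scd3.

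Of the 9 tested genes of fatty acid synthesis, elongation and desaturation, 0 passed in limma in either direction, and 1 was higher at an unadjusted p below 0.05. The list median was 0.24. The lowest was Thrsp, a regulator of fatty acid synthesis, at -0.32, and the highest Scd2. Elovl3, an elongase of sebocytes, stood at 0.48 (limma adjusted p = 0.196) with 7 of 8 arrays above 0.

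The relatives of Fabp5 with a value had fitted or mean ratios nearer 0. Fabp4, listed as an adipocyte marker, had no value among the named genes. Spot intensities were not used, so it is not known whether the relatives named here were expressed in this skin. The other fatty acid binding protein genes with a fit were Fabp7 of brain at -0.32 ± 0.23, Fabp9 of testis at -0.0033 ± 0.35, Fabp6 of ileum at 0.0019 ± 0.21 and Fabp2 of small intestine at 0.12 ± 0.24 (SE). Each of these had arrays above and below 0. Fabp3, the heart form, had 5 values from 0.07 to 0.67, all above 0, and Fabp1, the liver form, had 0.20 and 0.25 on arrays 4 and 5. Crabp1, a retinoic acid binding relative, ran from -0.25 to 0.42 on 5 arrays. Of the 11 genes of fatty acid binding and uptake tested, 0 passed in limma, and 0 had an unadjusted p below 0.05. They ran from Dbi, the acyl-CoA binding protein, at -0.35 to Vldlr, a lipoprotein receptor, at 0.40, and their median was 0.01. The difference between Fabp5 and these genes was not tested, because Fabp5 was chosen from its ratio.

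Of 11 other sebaceous gland genes tested, 0 passed in limma, with 3 higher and 1 lower at an unadjusted p below 0.05 and a median of 0.28. Prdm1, which encodes the repressor Blimp1 of the sebaceous duct, had the highest fitted ratio at 0.92 ± 0.39 (SE), with 3.23 on array 8 and -0.36 on array 3. Without array 8 it was 0.35. Mgst1, a microsomal glutathione transferase abundant in sebocytes, had the lowest at -0.41 ± 0.18 (SE), below 0 on 6 of 8 arrays. Mc5r, the melanocortin receptor of the gland, had 5 values, of which 4 lay between -0.09 and 0.55 and array 8 at -3.73.

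Among 14 tested genes of epidermal barrier lipids 0 passed in limma, with 0 higher and 1 lower at an unadjusted p below 0.05. The median was -0.08. Smpd3, a sphingomyelinase, was lowest at -0.44 ± 0.19 (SE), below 0 on 7 of 7 arrays, and the lipoxygenase gene Alox15 was highest at 0.68 ± 0.35 (SE), with 5 of 7 arrays above 0, and at 0.19 without array 8. Of 11 regulators of sterol and lipid genes 0 passed, with 1 higher and 0 lower before adjustment and a median of -0.04. They ran from Nr0b2, a nuclear receptor that represses bile acid synthesis, at -0.80, with -4.21 on array 3 and a fit of -0.40 without it, to the retinoic acid receptor gene Rarg at 0.50. Pparg and Ppara, nuclear receptors for fatty acids, stood at -0.11 and -0.23.

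Triglyceride and phospholipid synthesis had 8 genes tested and 0 past the threshold in limma, with 0 at an unadjusted p below 0.05. Their median was 0.13, from Pla2g6 at -0.26 to Pemt at 0.39, and without array 8 these stood at -0.050 and 0.11. Fatty acid oxidation and lipolysis had 11 tested and 0 past it, with 1 higher and 0 lower before adjustment. The median there was -0.05, with Eci2 lowest at -0.40. Acadl, the long-chain acyl-CoA dehydrogenase, was highest at 1.10 ± 0.34 (SE, limma adjusted p = 0.102), with 7 of 8 arrays above 0 and 4.40 on array 8, and at 0.70 without array 8. It passed with quantile normalization (limma adjusted p = 0.0178).

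Fabp5 RNA is also made by keratinocytes in an activated state and by fat cells, so the markers of those and other cells were read beside it. Of 10 markers of activated keratinocytes, Gjb2, a gap junction gene, was lower and 9 did not pass, with a median of -0.18. Gjb2 had log2 ratios of -1.22, -3.05, -2.19, -1.49, -1.32, -0.12 and -1.52 on arrays 1, 2, 4, 5, 6, 7 and 8, all below 0. Like Fabp5 it was lowest on array 2, the array with the widest spread of all ratios, and nearest 0 on array 7. On array 8, however, Fabp5 stood at -0.36. The fitted ratio of Gjb2 was -1.54 ± 0.31 (SE, limma adjusted p = 0.0201), and the call was lost without any 1 of arrays 1, 4, 5 and 6. Other markers of the list went both ways, with 2 higher and 4 lower at an unadjusted p below 0.05, Gjb2 among the latter. The serpin gene Serpinb3a stood at 0.70 ± 0.18 (SE, limma adjusted p = 0.0511), above 0 on 8 of 8 arrays, and Sprr1b, a cornified envelope precursor, at -1.04 ± 0.26 (SE, limma adjusted p = 0.0601), below 0 on 7 of 7. The median of that list on an array ran from -0.81 on array 6 to 0.62 on array 3 and was below 0 on 5 of 8. Of 10 adipocyte markers Cfd, complement factor D, was higher at 1.96 ± 0.33 (SE, limma adjusted p = 0.0102) and 9 did not pass, with array medians from -0.06 to 0.24. Of those 10, 4 had fitted ratios below 0. Car3, a carbonic anhydrase of fat and muscle, was the lowest at -0.86 ± 0.23 (SE, limma adjusted p = 0.0667), below 0 on 7 of 7 arrays. The part of these cells in the ratio of Fabp5 was not tested.

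Of the hair follicle markers 5 of 11 tested were lower, Krtap15, Krtap14, Krt31, Krtap9-1 and Krt71, and the median of the list was below 0 on 8 of 8 arrays, from -1.38 to -0.12. Over all genes tested, for comparison with each cell type list, 2.8% were lower and 0.662% higher. The marker lists were chosen with earlier results of these arrays known. Their counts are therefore a description, and enrichment of a list was not tested. Fitted ratios of the 11 follicle markers were below 0 for 7 and above 0 for 4. The highest was Krt35 at 0.63 ± 0.42 (SE), with 4.83 on array 8. Of 9 dermal fibroblast markers Vim and Fbn1 were higher, with array medians from 0.17 to 1.35, none below 0. Krt1 was higher among 7 markers of epidermal differentiation, Mcpt2 higher and C1qb lower among 12 of immune cells, and Mbp lower among 11 of vessels, blood, muscle, nerve and melanocytes. In these lists, in that order, fitted ratios were above 0 for 5, 7 and 5 genes and below 0 for 2, 5 and 6. Ivl stood at -1.06 ± 0.28 and C1qa at 0.39 ± 0.19 (SE), against the directions of Krt1 and C1qb, and neither passed. Cfd, Krtap9-1, Vim and Mcpt2 kept their call whichever array was left out, and the other called markers lost it without at least 1 array.

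The genes whose ratios lay closest to each of the 3 were found by the root mean square difference over at least 6 shared arrays, as a description. For Fabp5 these were Serpina6, which encodes corticosteroid-binding globulin, at 0.39 over 6 arrays, Sec61a2 of the protein translocon at 0.39 over 7, the potassium channel gene Kcnk1 at 0.48 over 6 and the autophagy gene Atg10 at 0.52 over 6, among 4106 genes compared. For Scd3 they were Tle5, a Groucho family corepressor, at 0.17 over 7 arrays, the methyltransferase gene Bud23 at 0.18, the mitochondrial protease gene Clpp at 0.23 and Sat1, the polyamine acetyltransferase, at 0.26, each of the last 3 over 6. The profile of Tle5 ran from -2.50 to 0.37 and so spanned the same range as Scd3. For Cyp51 they were the channel gene Trpc7 and the choline kinase gene Chkb, both at 0.23 over 6 arrays, the repressor gene Gfi1 at 0.26 and the mitotic checkpoint gene Bub1b at 0.28, both over 7, among 3573. None of the 12 belongs to the list of the gene it resembles. Chkb does belong to another lipid list, that of triglyceride and phospholipid synthesis. Several cholesterol synthesis genes, such as Msmo1 with 5 shared arrays, had too few values to be compared with Cyp51 in this way.

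The fitted ratio of Fabp5 ran from -1.86 without array 8 to -1.35 without array 1, and that of Scd3 from -0.94 without array 7 to -0.62 without array 2. That of Cyp51 ran from 0.43 without array 8 to 0.95 without array 3. With arrays 4 to 8 alone, which leaves out the arrays with the fewest values, the 3 stood at -1.12, -0.67 and 0.82. With arrays weighted by their agreement with the rest, where arrays 2 and 3 had the least weight, they stood at -1.75, -0.59 and 0.36. If the table held Cy5 over Cy3 instead of mutant over wild type, Fabp5 would be at -0.15 and Cyp51 at -0.065, while Scd3 would be at -0.71. The size of Scd3 is thus similar under both readings, and those of Fabp5 and Cyp51 rest on the reading used here.

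**Figure D5:**
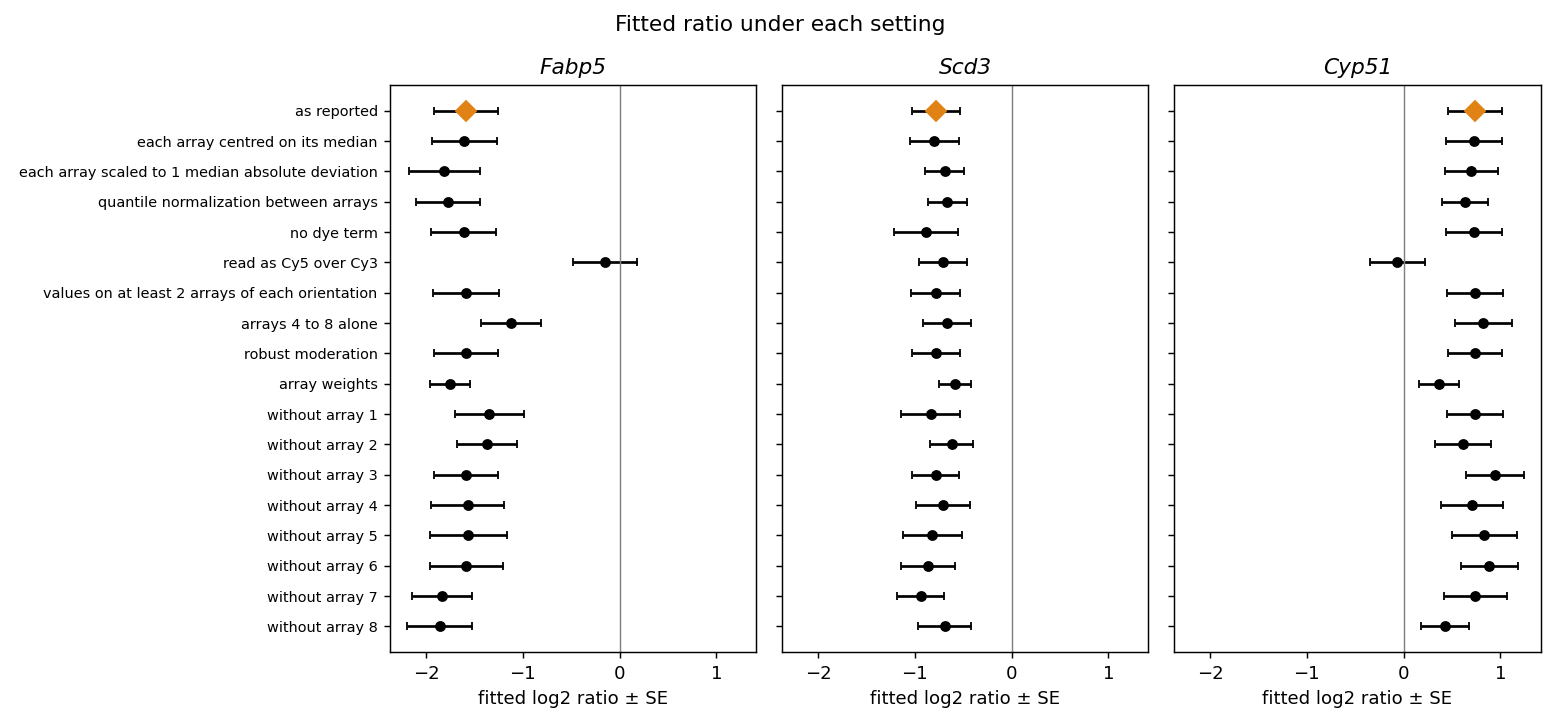
Fitted log2 ratio ± SE (horizontal axis) of Fabp5, Scd3 and Cyp51 under each way of processing (rows), with the diamond the value as reported. Fabp5 and Scd3 lie below 0 in every row, and Cyp51 lies above 0 in every row except the reading as Cy5 over Cy3, at -0.065.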

How the data were processed

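The authors deposited 1 table of log ratios, 1 column per array, read here as log2 values. Dyes were coupled and hybridized by standard protocols, per the labels. Neither the scanner software nor the normalization, the log base or the treatment of missing spots was stated. Of 23232 rows, 1235 control spots were left out. Of the other 21997, 6749 were named by RefSeq accession and 77 by synonym through a RefSeq table of the assembly GRCm38.p6, and 15171 have no name here. Probes of a gene were averaged.

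A gene entered the fit if 3 or more of the 4 arrays in each dye orientation gave a value. The model, in limma 3.58.1 (R 4.3.3), had the average ratio and the orientation as terms, and p-values of all 3779 genes were adjusted by Benjamini-Hochberg, with 0.05 as threshold. The fit was tested on simulated data. The table was read as already turned to mutant over wild type, because the 232 replicate spots of Gapdh correlated below 0 in 16 of 16 pairs of arrays of opposite orientation (median r = -0.45) and above 0 in 12 of 12 of the same orientation (median r = 0.55). Over all probes the same orientation gave 12 of 12 pairs above 0 (median r = 0.49), while opposite orientations were mixed, with 6 pairs above 0 and 10 below (median r = -0.023), so that check gave no verdict. Fabp5, Scd3, Cyp51 and the gene lists were chosen with earlier results of these data known. Within each lipid list, the genes named were those past the threshold and the highest and lowest of the rest. Also named were relatives of the 3 genes, the 4 genes closest to each, and the called markers of other cells. Others (Ppara, Pparg, Elovl3, Nsdhl, Dhcr7, Fdft1, Hsd17b7, Sgpl1, Mc5r, Car3, Serpinb3a, Sprr1b, Krt35, Ivl, C1qa) were named after their values were seen. The number of arrays limits the precision.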

Additional observations from a re-analysis of the deposited data

Results flagged for a closer look

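Dixon's ratio was taken for Fabp5, Scd3, Cyp51 and the genes named by rule with a fit. Genes named after their values were seen were left out. Of these 43 sets of values over arrays, 7 were found to hold 1 array apart from the rest. A rate of 1 in 20 sets would give 2.15 here, if arrays had equal spread and genes were named without regard to their values. Neither held. The SD of all ratios ran from 0.57 on array 5 to 1.60 on array 2, and some genes were named as the highest or lowest of a list. The 7 can therefore not be judged against 2.15. Array 8 stood far above the rest for Scd1 (4.71), Scd2 (5.98) and Acadl (4.40). Array 3 stood far below the rest for Ebp (-3.00) and Nr0b2 (-4.21), and far above for Kcnk1 (1.72), on an array where Fabp5 has no value. Mcpt2 was nearest 0 on array 5 (0.15). No value of Fabp5, Scd3 or Cyp51 was flagged in this way.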

How the results depend on the processing

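Counts of called genes moved more than the ratios of Fabp5, Scd3 and Cyp51. Against 25 higher and 106 lower genes, and 1 higher and 0 lower lipid genes, the counts were 41 and 165 with arrays scaled to a common spread, and 128 and 223 with quantile normalization, which called 2 lipid genes higher (Ggps1 and Acadl) and 1 lower (Nr0b2). They were 184 and 307 with array weights, with 2 lipid genes lower (Sgpl1 and Smpd3), 5 and 59 without a dye term, and 2 and 10 with arrays 4 to 8 alone. With values on at least 2 arrays of each orientation 12 genes were higher, and with values on all 8 arrays 55 were lower. Ggps1 was not called, leaving 0 lipid genes higher, with arrays centred on their medians, without a dye term, with either of these filters, with arrays 4 to 8 alone and with ratios read as Cy5 over Cy3. Leaving out 1 array gave between 6 and 21 higher genes, between 47 and 112 lower genes, and 0 or 1 lipid genes higher. Such fits tested the same 3779 genes as the full fit, but did not keep all of its calls. They turned the sign of small uncalled ratios too, as for Fabp2, Fabp6 and Fabp9.

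Read as Cy5 over Cy3, 62 genes were higher and 4 lower, Fabp5 stood at -0.15 and Cyp51 at -0.065, and the sign turned for Ggps1 (-0.11), Krt1 (-0.40), Krtap15 (0.50), Krtap9-1 (0.35) and Vim (-0.71). Under the other 16 settings the 3 genes kept their sign wherever they had a value, and none had one on all 8 arrays. No paired analysis was possible because each array gives 1 ratio and the labels tie no array to an animal.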
